A study of Mus musculus with 27 samples.

Results

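The genes described here are 9 that the transcription factor NF-kB is known to switch on, most of which act back on the same pathway: Nfkbia, Nfkbie, Nfkb1, Nfkb2, Relb, Tnfaip3, Zfp36, Icam1 and Irf1. They were chosen by name, with earlier results of these data known, so the shares of all coding genes beside them are description only. They make up 9 of the 21887 coding genes that RefSeq places on the chromosomes of GRCm38.p6, the mouse assembly that mm10 names. For each gene the deposited peaks that share at least 1 base with the gene or with the 1 kb on either side of it were collected from 8 peak lists. The lists come from CUT&RUN, an assay in which an antibody directs a nuclease to the chromatin that its target occupies, in primary mouse hepatocytes. Cells of genotype WT were set beside cells of Alb-cre:Aclyf/f mice (KO), in which a Cre driven by the albumin promoter deletes the floxed part of Acly in hepatocytes. WT cells were cultured in normoxia or hypoxia-reperfusion (HR), and KO cells in HR only. HR imitates in a dish the loss and return of oxygen in an injured liver. Every CUT&RUN sample is recorded at 24 hours after isolation of the cells. The antibodies were against H3K27ac and H3K9ac, histone marks of active chromatin, in all 3 conditions, and against FLAG, to find tagged ACLY, in the 2 WT cultures. The sources used here state neither how WT cells came to carry the tag nor whether a culture held cells of several mice. There was 1 library per antibody and condition, so no difference between conditions has a replicate check and none is tested. The study also holds 16 RNA libraries of liver and 3 IgG samples, which were not analysed here: the RNA rows are Ensembl transcripts, and no table that pairs these with genes was used.

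NF-kB is a family of paired DNA-binding proteins that IkB proteins hold in the cytoplasm. Signals from tumour necrosis factor, interleukin 1 and Toll-like receptors activate a kinase complex that marks IkB for destruction, and the freed pairs enter the nucleus and bind kB sites. Among the genes they switch on are their own inhibitors, which is why the response is known to come in pulses. In liver the pathway is known both for protecting hepatocytes from death and for the inflammation that follows ischemia and reperfusion. ACLY makes acetyl-CoA, the donor of the acetyl groups on histones.

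Of the 9 genes, 8 had H3K9ac in WT HR (36.4% of all coding genes did) and 4 had it in KO HR (35.9%): Nfkbia, Nfkb1, Tnfaip3 and Zfp36 had it in both, and Nfkbie, Nfkb2, Icam1 and Irf1 had it in WT HR only. Of all coding genes with H3K9ac in WT HR, 10.9% had none in KO HR. H3K27ac stood at 7 of the 9 genes in WT HR (30.3% of all coding genes) and at 7 in KO HR (37.9%). ACLY-FLAG peaks of WT HR lay at 5 of the 9 genes, against 13.2% of all coding genes.

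The promoter tables of RefSeq (GRCm38.p6) held 7 of the 9 genes, all but Nfkb1 and Relb. The 250 bases before each listed start were searched on both strands for the kB consensus, the 10-base pattern that NF-kB pairs are known to bind. A match was found at 5 of these 7 genes, Nfkbia, Nfkbie, Nfkb2, Irf1 and Tnfaip3, against 4.82% of the 17492 coding genes in the table and 4.18% of its 21263 promoters. None was found in the windows of Icam1 and Zfp36. A match had to fit the pattern at every base, so a sequence that departs from it at 1 base was not counted. The Icam1 window holds such a sequence, tggaaattcc. The lack of a match therefore does not show that a promoter has no kB site. The promoters of the 5 genes with a match are printed because they hold both genes that kept H3K9ac in KO HR and genes that did not. Each is the 250 bases before the first listed start, 5′ to 3′ on the gene's strand, with the bases of a match on either strand in capitals. They lie at chr12:55492648-55492897 on the minus strand (Nfkbia), chr10:19015411-19015660 on the minus strand (Tnfaip3), chr17:45555450-45555699 on the plus strand (Nfkbie), chr19:46304487-46304736 on the plus strand (Nfkb2) and chr11:53769764-53770013 on the plus strand (Irf1).
Nfkbia: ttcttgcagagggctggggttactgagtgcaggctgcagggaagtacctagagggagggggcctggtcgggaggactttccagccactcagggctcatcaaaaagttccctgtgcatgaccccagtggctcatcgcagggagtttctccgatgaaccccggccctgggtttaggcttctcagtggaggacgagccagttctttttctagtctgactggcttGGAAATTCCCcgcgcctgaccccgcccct
Tnfaip3: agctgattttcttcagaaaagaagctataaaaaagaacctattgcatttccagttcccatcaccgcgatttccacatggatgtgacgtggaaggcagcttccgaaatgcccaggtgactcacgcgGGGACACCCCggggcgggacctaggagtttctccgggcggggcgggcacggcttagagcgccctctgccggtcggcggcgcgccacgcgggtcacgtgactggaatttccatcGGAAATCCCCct
Nfkbie: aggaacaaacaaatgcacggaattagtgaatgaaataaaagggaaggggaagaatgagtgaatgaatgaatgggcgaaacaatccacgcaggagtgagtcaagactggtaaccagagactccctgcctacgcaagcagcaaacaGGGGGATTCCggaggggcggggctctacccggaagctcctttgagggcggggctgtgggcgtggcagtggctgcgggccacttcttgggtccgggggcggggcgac
Nfkb2: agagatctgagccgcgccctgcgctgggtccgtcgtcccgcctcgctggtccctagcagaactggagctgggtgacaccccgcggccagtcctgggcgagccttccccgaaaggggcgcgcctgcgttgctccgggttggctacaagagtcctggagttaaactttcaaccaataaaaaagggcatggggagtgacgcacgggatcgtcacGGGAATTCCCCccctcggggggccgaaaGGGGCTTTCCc
Irf1: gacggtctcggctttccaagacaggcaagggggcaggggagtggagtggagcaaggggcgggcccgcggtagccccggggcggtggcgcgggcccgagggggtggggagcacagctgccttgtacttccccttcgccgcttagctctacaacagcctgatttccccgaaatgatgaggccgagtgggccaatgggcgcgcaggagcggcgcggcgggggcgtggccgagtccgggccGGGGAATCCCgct

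The match at Nfkbia begins 29 bases before the start, and GGGAATTTCC reads on the opposite strand. At Tnfaip3 the matches begin 125 and 12 bases before the start. The peaks of both genes covered these bases in all 6 acetylation lists and in the ACLY-FLAG list of WT HR. At Nfkb2 there are 4 matches on both strands together, 3 of which overlap in a run that begins 39 bases before the start, and 1 of which begins 11 bases before it. Only WT normoxia H3K9ac, WT HR H3K9ac and WT HR H3K27ac had a peak over them. At Irf1 the capitals read as a match on both strands, beginning 13 bases before the start, and were covered by H3K9ac in WT normoxia and WT HR and by ACLY-FLAG. The match at Nfkbie begins 106 bases before the start and was covered in WT HR H3K9ac alone. The capitals at Nfkbia and Tnfaip3 lay under a KO HR peak of both marks, and those at Nfkbie, Nfkb2 and Irf1 under none. For H3K9ac the absence at these 3 genes adds nothing, since a gene counted as without a peak cannot have one over these bases. The capitals at Nfkbie and Irf1 lay under no H3K27ac peak in the WT cultures either. For H3K27ac only those at Nfkb2 were covered in WT HR and not in KO HR. With a narrower form of the consensus, of which GGGAATTTCC at Nfkbia and GGGACTTTCC at Nfkb2 are matches, 0.434% of genes had one. Of the 7 genes only Nfkbia and Nfkb2 did, the latter before the third of its listed starts. A match is a run of letters and does not show that NF-kB bound there.

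The lists set limits on what can be compared. They hold 5655 peaks for WT normoxia H3K27ac, 8252 for WT HR H3K27ac, 14418 for KO HR H3K27ac, 6513 for WT normoxia H3K9ac, 7593 for WT HR H3K9ac, 8837 for KO HR H3K9ac, 3666 for WT HR ACLY-FLAG and 1 for WT normoxia ACLY-FLAG. Read depths are unknown. Nearly all WT peaks begin and end on multiples of 10 bp and about 1% of KO peaks do (0.943% and 1.01%), so the making of the KO lists differed from that of the WT lists. The KO HR H3K9ac list covers 30.3 Mb in more but narrower peaks (median 2961 bp) and the WT HR list 57.8 Mb (median 6400 bp). Genotype and list-making cannot be told apart. Of 15 hepatocyte markers, Alb, Hnf4a and Ttr among them, 11 carried H3K27ac in WT normoxia and 12 in either HR culture, and 10 carried H3K9ac in each. Of 37 markers of macrophages, neutrophils, endothelial cells, stellate cells, cholangiocytes and lymphocytes, 3 to 5 had a peak in an acetylation list, Cd68, Stab2, Lyve1, Sox9 and Cd79a among them. Adgre1, Clec4f, Ptprc, S100a8, Pecam1 and Cd3e had none. The part of other cells in the results was not tested.

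**Figure D1:**
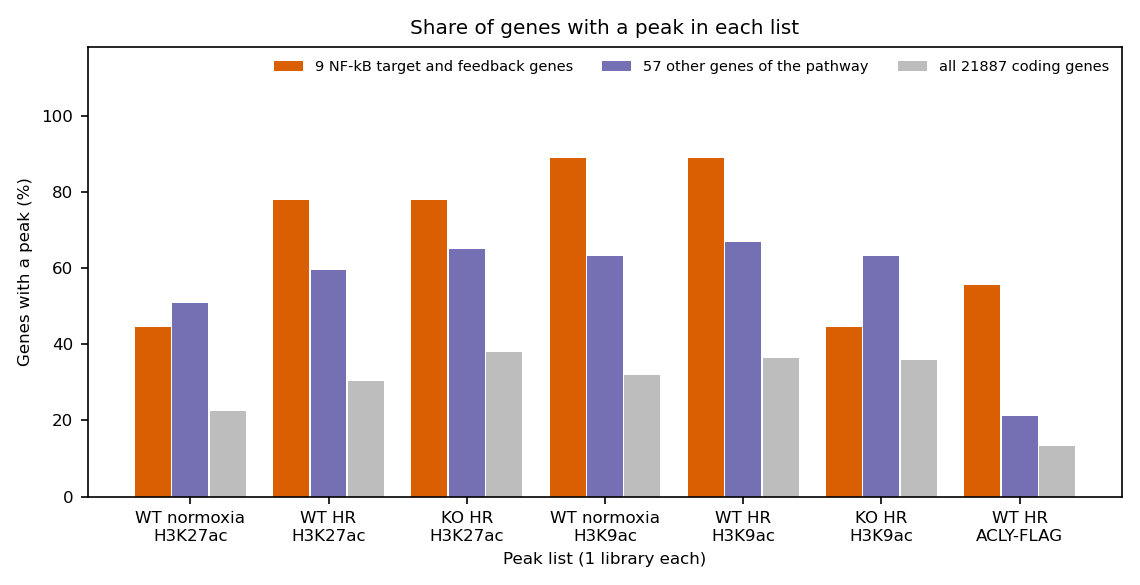
Share of genes with a peak (vertical axis, percent, from 0) in 7 peak lists of 1 library each, for the 9 NF-kB target and feedback genes (orange), 57 other genes of the pathway (purple) and all 21887 coding genes (grey). The orange bar falls from 88.9% in WT HR H3K9ac to 44.4% in KO HR H3K9ac, while the purple bars there stand at 66.7% and 63.2% and the grey bars at 36.4% and 35.9%.

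Signal was used only to rank the peaks within a list and to place the maximum of each peak. A rank percentile near 0 marks the strongest peaks of a list and 100 the weakest, and percentiles from lists of different lengths show no change. Where 3 values of a mark are given together, they run from WT normoxia through WT HR to KO HR.

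Nfkbia encodes IkB-alpha, the inhibitor that is rebuilt soonest after NF-kB is freed. The gene lies on chromosome 12 at 55489409 to 55492647 and had both marks in every condition. Its H3K27ac peaks ranked at 40.7%, 47.8% and 41.1% of their lists and covered the whole gene in each. Its H3K9ac peaks ranked at 21.6%, 35.9% and 50.2%. They covered the whole gene in both WT lists and 91.1% of it in KO HR, where the peak was 3878 bp wide against 6930 bp in WT HR. An ACLY-FLAG peak of 2030 bp (rank 394 of 3666) lay over the start, with its maximum 692 bp inside the gene.

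Nfkbie encodes IkB-epsilon, a later-acting inhibitor of the same kind. It lies on chromosome 17 at 45555700 to 45563169, beside Slc35b2 and Hsp90ab1, a highly expressed chaperone gene, and much of the signal at it belongs to that side. In WT HR a weak H3K9ac peak (rank 7401 of 7593, 45555341 to 45560370) covered its start. The strong WT HR peak (rank 598) began 321 bases past the other end of the gene and spanned Slc35b2 and Hsp90ab1. In WT normoxia 1 broad peak (45561321 to 45575670, rank 1103 of 6513) reached over the last 24.8% of the gene and left the start uncovered. In KO HR no H3K9ac peak counted. The nearest one began at 45564170, with 1000 bases between it and the gene, the base next to the edge of the 1 kb window, and KO HR peaks covered 7796 bp under the strong WT HR peak. The change at Nfkbie therefore rests on that edge for the downstream peak, and on a peak near the foot of the WT HR list for the start. H3K27ac was counted in KO HR only (rank 1946 of 14418), from a peak that began 505 bases past the gene. WT HR had a peak 3931 bases away, so this gain too rests on how far the neighbouring domain reached. No ACLY-FLAG peak lay within 34.6 kb.

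Nfkb1 encodes p105, the precursor of the p50 subunit. The gene spans 107315 bp on chromosome 3, at 135584655 to 135691969, and had both marks in every condition. A peak of each mark lay over its high-coordinate end in all 6 lists. For H3K9ac that peak ranked at 25.3%, 24.9% and 31.8%. H3K27ac also stood inside the gene, in a peak (135668831 to 135677740 in WT HR) that ranked at 28.8% in WT normoxia, 39.3% in WT HR and 33.0% in KO HR. H3K9ac accompanied this inner peak in WT normoxia (rank 4520 of 6513) and not in WT HR or KO HR. A further inner H3K27ac peak, at 135657796 to 135661226, was in the KO HR list alone. No ACLY-FLAG peak lay at Nfkb1.

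Nfkb2 encodes p100, the precursor of the p52 subunit of the alternative pathway. On chromosome 19 it runs from 46300994 to 46312400, and each of its peaks covered its 3 listed starts. They were among the weaker peaks of their lists. H3K9ac ranked at 96.5% in WT normoxia (46303811 to 46307630) and 75.7% in WT HR (46303551 to 46307400). H3K27ac was in WT HR only, at 78.1%. KO HR had neither mark, and the nearest KO HR peaks were 81.3 kb away for H3K27ac and 81.4 kb away for H3K9ac. It was the only one of the 9 genes to have both marks in WT HR and neither in KO HR. No ACLY-FLAG peak lay at it.

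Relb, at 19606217 to 19629438 on chromosome 7, encodes the subunit that pairs with p52. It had no H3K9ac in any condition. The nearest such peaks, at its low-coordinate end, were 1106, 1016 and 1665 bases away, just outside the window. H3K27ac lay over its high-coordinate end in WT HR (rank 8127 of 8252) and KO HR (rank 9799 of 14418) and not in WT normoxia. An ACLY-FLAG peak covered the same end, ranked 3272 of 3666. All 3 peaks were in the weaker part of their lists, at 98.5%, 68.0% and 89.3%.

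Tnfaip3 encodes A20, the ubiquitin-editing enzyme that shuts off signalling upstream of NF-kB. The gene lies on chromosome 10 at 19000910 to 19015410 and had both marks in every condition. H3K9ac there was among the strongest 10% of peaks in each list, at 7.89%, 8.56% and 6.48%. H3K27ac ranked at 33.2%, 19.8% and 22.3%. In WT HR the H3K27ac peak was 21780 bp wide and covered the whole gene, where the peaks of WT normoxia and KO HR covered 56.5% and 53.5% of it. A second KO HR peak outside the window lay under the same WT HR peak, so that KO HR peaks together were 11035 bp wide there. The ACLY-FLAG peak (rank 160 of 3666) had its maximum 55 bp before the start.

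Zfp36 encodes tristetraprolin, which binds and destabilises the messenger RNAs of tumour necrosis factor and other cytokines. The gene lies on chromosome 7 at 28376784 to 28379228 and had the strongest signal of the 9 genes in all 6 acetylation lists and in the ACLY-FLAG list. H3K27ac ranked 445 of 5655, 331 of 8252 and 319 of 14418. H3K9ac ranked 98 of 6513, 124 of 7593 and 127 of 8837. The gene is only 2445 bp long, and its domains reached over its neighbours: the widest, WT normoxia H3K9ac at 25530 bp, also reached Med29, Paf1 and Samd4b. It alone had 2 ACLY-FLAG peaks. One (rank 124 of 3666) had its maximum 87 bp before the start. The other (rank 19 of 3666) lay wholly upstream with its maximum 3077 bp before the start.

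Icam1 encodes the adhesion molecule by which leukocytes hold on to activated cells. It lies on chromosome 9 at 21015940 to 21028814 and had H3K9ac over its start in WT normoxia (rank 6034 of 6513, 21014021 to 21020170) and in WT HR (rank 5947 of 7593, 21014491 to 21018070). It had none in KO HR, where the nearest peak was 42.8 kb away. No H3K27ac peak counted in any of the 3 cultures, with 42.7 kb to the nearest peak in WT HR and 43.3 kb in KO HR. The nearest ACLY-FLAG peak was 12.5 kb away.

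Irf1 encodes a transcription factor of the interferon response. The gene lies on chromosome 11 at 53770014 to 53778374. H3K9ac covered both listed starts in WT normoxia (rank 4719 of 6513, over 100% of the gene) and WT HR (rank 5687 of 7593, over 50.3% of it). In KO HR there was none, and the nearest peak was 5.39 kb away. H3K27ac lay over the far end, absent in WT normoxia and ranked at 57.7% in WT HR and 45.5% in KO HR, with maxima 9362 and 9240 bp past the nearest start. The ACLY-FLAG peak (rank 1065 of 3666) lay over the starts, with its maximum 39 bp before one. The WT HR peaks of the 2 marks overlapped inside the gene, and no H3K27ac peak reached a start.

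**Figure D2:**
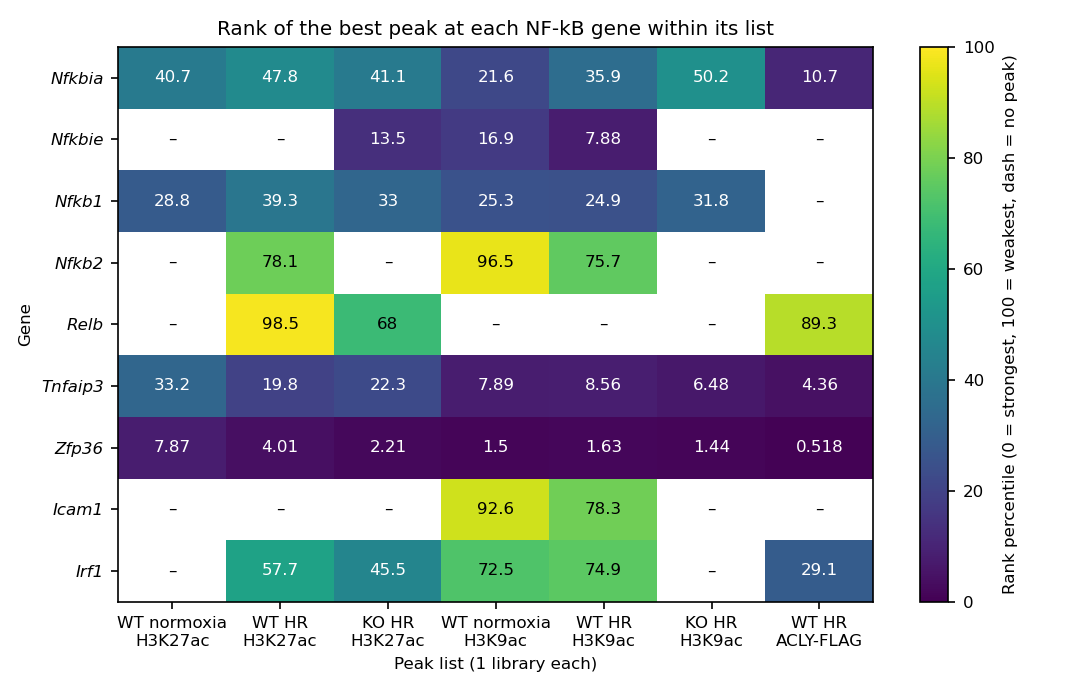
Rank percentile of the best peak at each gene (rows) in 7 peak lists of 1 library each (columns), from 0 for the strongest peak of a list (dark) to 100 for the weakest (yellow); a dash marks no peak within 1 kb. Zfp36 is the darkest row, from 0.518 to 7.87, and in the KO HR H3K9ac column Nfkbie, Nfkb2, Relb, Icam1 and Irf1 have a dash.

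**Figure D3:**
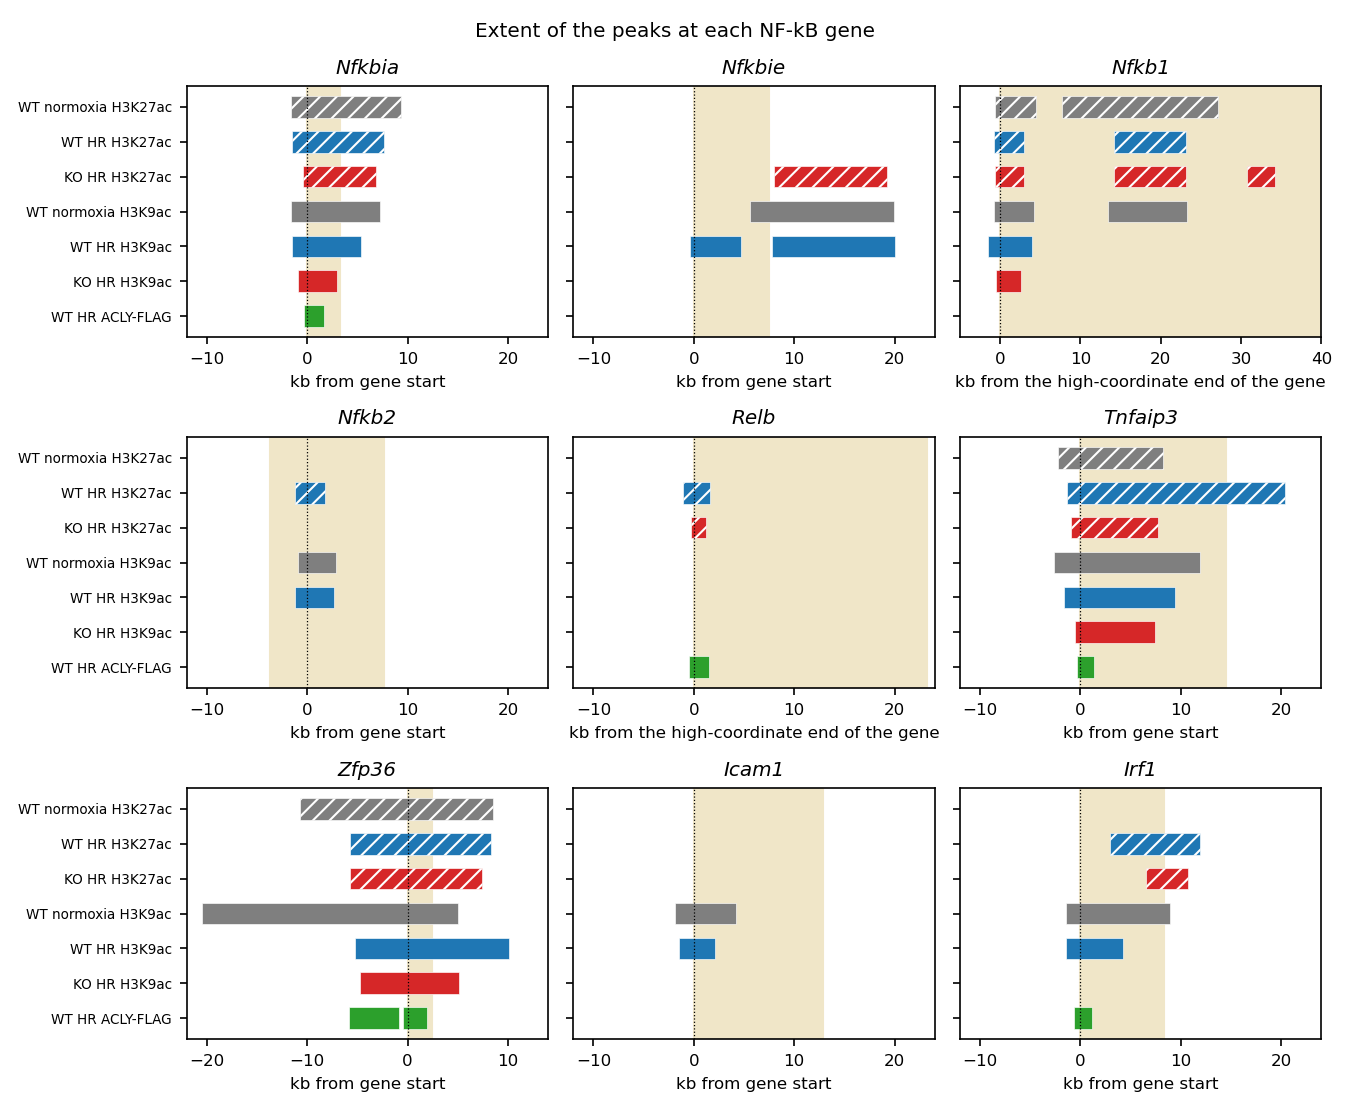
Extent of the peaks counted at each gene in 7 lists, drawn against the distance in kb from the first listed start (horizontal axis; for Nfkb1 and Relb from the high-coordinate end of the gene), with the gene shaded, H3K27ac hatched, H3K9ac plain, WT normoxia grey, WT HR blue, KO HR red and ACLY-FLAG green. The red H3K9ac bar is missing at Nfkbie, Nfkb2, Relb, Icam1 and Irf1, and at Irf1 no hatched bar reaches the start, which both plain bars cover.

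From WT normoxia to WT HR, H3K27ac was gained at Nfkb2, Relb and Irf1 and lost at none of the 9 genes, which took it from 4 genes (22.6% of all coding genes) to 7 (30.3%). Of all coding genes 8.38% gained H3K27ac and 0.699% lost it, and of the genes without it in normoxia 10.8% gained it, against 3 of 5 here, while 3.09% of the genes that had it lost it. The HR list is the longer one, by 8252 peaks to 5655. With both lists at 5655 peaks, only Irf1 gained it, beside 3.73% of the coding genes without it in normoxia. With margins of 5 kb the count was again 3, but of Nfkbie, Nfkb2 and Relb, since WT normoxia had a peak 4.72 kb from Irf1. H3K9ac was gained and lost at none of the 9 genes, beside 5.92% and 1.45% of all coding genes, or 8.7% of those without it and 4.54% of those with it. The 8 genes that had it in HR were the 8 that had it in normoxia, where 31.9% of all coding genes did. The covered part of the gene went from 100% to 50.3% at Irf1, from 32.9% to 16.6% at Icam1 and from 81.9% to 65.0% at Tnfaip3, and Nfkb1 lost its inner peak. It was 100% in both at Nfkbia and Zfp36 and 33.5% and 33.8% at Nfkb2, and at Nfkbie the peak over the start, covering 62.5%, was in WT HR only. The median width of all H3K9ac peaks also went from 7790 to 6400 bp.

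From WT HR to KO HR, H3K27ac was gained at Nfkbie and lost at Nfkb2. Of all coding genes 8.31% gained it and 0.672% lost it, or 11.9% of those without it in WT HR and 2.22% of those with it. The KO HR list has 14418 peaks, and with both lists at 8252 peaks Relb lost it as well, beside 14.6% of the coding genes that had it in WT HR. H3K9ac was lost at Nfkbie, Nfkb2, Icam1 and Irf1 and gained at none, beside 3.97% and 3.46% of all coding genes, the latter being 5.44% of those without it in WT HR. The KO HR list is not the shorter one here, and with both lists at 7593 peaks the same 4 genes were without H3K9ac, then beside 16.4% of the coding genes that had it in WT HR.

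The H3K9ac peaks lost in KO HR were the weak ones of WT HR. Of the 9 WT HR H3K9ac peaks at these genes, the 5 that ranked in the strongest 35.9% of the list overlapped a KO HR peak. The 4 that ranked from 74.9% down, over the starts of Irf1, Nfkb2, Icam1 and Nfkbie, did not. Over the whole list the overlap also fell with rank, from 99.9% (95% Wilson interval 99.3 to 100%, counting error only) in the strongest of 10 equal bins to 63.4% (59.9 to 66.8%) in the weakest. In bin 8, which holds the peaks of Irf1, Nfkb2 and Icam1, it was 77.9% (74.8 to 80.7%). Of the 641 coding genes whose best WT HR peak lay in that bin, 20.4% had none in KO HR, and Nfkb2, Icam1 and Irf1 were all among them. The 3 peaks ranked 5687 to 5947, so in lists of the first 5655 peaks only they were absent from WT HR as well, and the count of genes that lost H3K9ac in KO HR was then 1, Nfkbie, beside 19.8% of the coding genes with it.

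**Figure D4:**
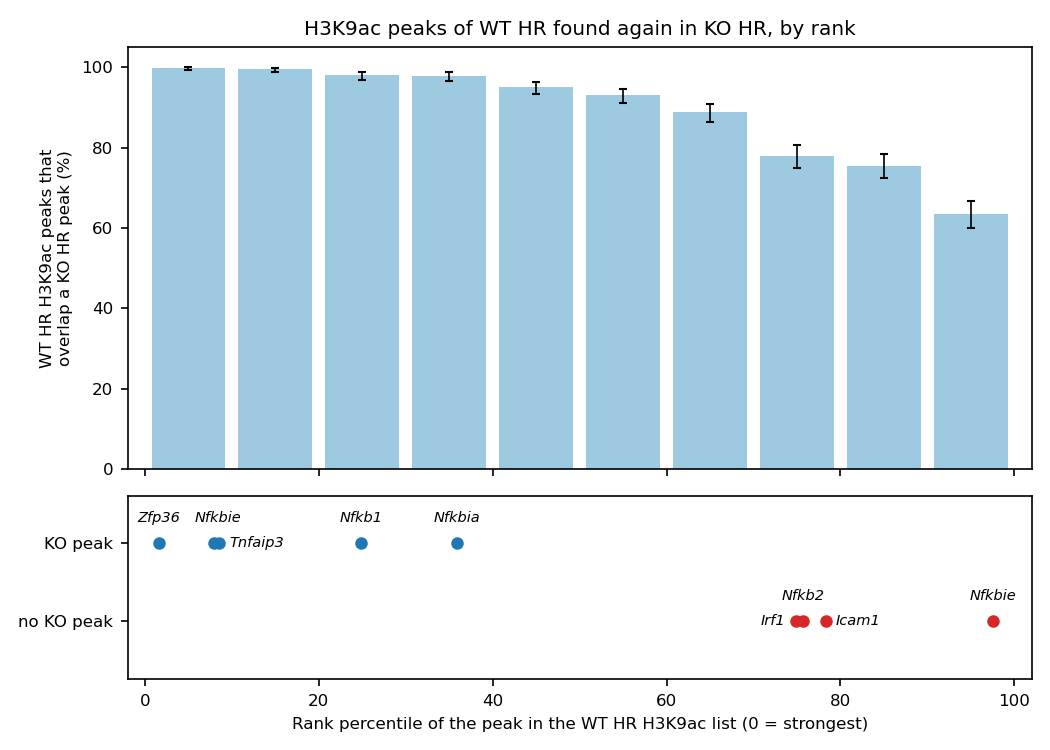
Upper panel: share of WT HR H3K9ac peaks that overlap a KO HR H3K9ac peak (vertical axis, percent, from 0) in 10 equal bins of the WT HR list, strongest at the left, with 95% Wilson intervals. Lower panel: the 9 WT HR H3K9ac peaks at the NF-kB genes at their rank percentile, blue where a KO HR peak overlaps and red where none does; Nfkbie has 1 peak of each kind.

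Where H3K9ac was kept in KO HR its peaks were narrower, as they were in the whole list. The KO HR width divided by the WT HR width was 0.56 at Nfkbia, 0.563 at Nfkb1, 0.726 at Tnfaip3 and 0.798 at Zfp36, where a second KO HR peak under the WT HR peak is included. The median over all 6749 overlapping WT HR peaks was 0.546. For H3K27ac the ratios ran from 0.465 at Irf1 to 1.0 at the inner peak of Nfkb1, beside a median of 0.783.

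ACLY-FLAG was found at Nfkbia, Relb, Tnfaip3, Zfp36 and Irf1 in WT HR. In WT normoxia it was at none of the 9 genes, but that list has 1 peak in all, on chromosome 9, so nothing can be read from the comparison. At the genes in the promoter table, the maxima lay 39 bp from a start for Irf1, 55 bp for Tnfaip3 and 692 bp for Nfkbia. Zfp36 had 2 peaks, with maxima at 87 bp and, for the stronger one, at 3077 bp. Of all 3666 ACLY-FLAG peaks, 21.5% had their maximum within 100 bp of a listed start. Of the 6 peaks at the 5 genes, 5 overlapped H3K9ac and 5 overlapped H3K27ac of the same culture, against 50.0% and 47.9% of all ACLY-FLAG peaks. The exceptions were Relb, without H3K9ac, and Irf1, whose peak lay apart from the H3K27ac at the far end. The bases are unlike: the shares are over peaks at any position, while each of the 9 genes had at least 1 mark in WT HR. ACLY-FLAG is more common at acetylated genes in general: it was at 30.8% of coding genes with both marks in WT HR, 18.4% of those with H3K9ac only, 16.8% of those with H3K27ac only and 4.26% of those with neither. Among the 9 genes it was at 4 of 6 with both marks, 0 of 2 with H3K9ac only and 1 of 1 with H3K27ac only.

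The genes with ACLY-FLAG in WT HR were mostly not those that lost H3K9ac in KO HR. Of the 4 genes with both H3K9ac and ACLY-FLAG in WT HR, Irf1 lost H3K9ac. Of the 4 with H3K9ac and no ACLY-FLAG, Nfkbie, Nfkb2 and Icam1 lost it and Nfkb1 kept it. Over all coding genes with H3K9ac in WT HR the loss was 6.84% with ACLY-FLAG and 12.5% without. The genes with ACLY-FLAG include Zfp36 and Tnfaip3, with WT HR H3K9ac peaks at ranks 124 and 650 of 7593. Nfkbie, without ACLY-FLAG, was counted with a peak at rank 598, which lay past the end of the gene. The part of peak strength in the difference between 6.84% and 12.5% was not tested.

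The other genes of the pathway were described from a list of 57. In KO HR, H3K9ac was gained at 3 of the 19 without it in WT HR and lost at 5 of the 38 with it. H3K27ac was gained at 5 of the 23 without it and lost at 2 of the 34 with it. Over all coding genes 5.44% of those without H3K9ac gained it and 10.9% of those with it lost it, and for H3K27ac the shares were 11.9% and 2.22%. Every pathway gene gained in KO HR had a peak ranked beyond the length of the WT HR list. For H3K9ac these ranks ran from 7762 on (7593 peaks in WT HR) and for H3K27ac from 8803 on (8252 peaks). These gains would therefore not be counted with the KO lists cut to those lengths. With every acetylation list at 5655 peaks, H3K9ac was gained in KO HR at 2 of the 57 genes and H3K27ac at 1. The shares of coding genes without the mark were then 2.91% and 1.28%. The part of list length in the gains was not tested. The signalling inputs, which are the receptors, adaptors and kinases upstream of IkB, had H3K9ac at 13 of 18 genes in WT HR and 16 in KO HR, and H3K27ac at 10 and 14. Over all coding genes the shares were 36.4% and 35.9% for H3K9ac and 30.3% and 37.9% for H3K27ac. Irak4, a kinase of the interleukin 1 and Toll-like receptors, had neither mark in WT HR and both in KO HR, at 87.8% of the H3K9ac list and 79.5% of the H3K27ac list. Zc3h12a, an RNase that degrades inflammatory messages, lost H3K9ac from a WT HR peak ranked 2136 of 7593, while its H3K27ac stayed. Ccl2, a chemokine that draws monocytes, lost both marks (H3K9ac from rank 7429 of 7593 and H3K27ac from rank 4032 of 8252). Csf1, the macrophage growth factor, lost H3K9ac from rank 3795 of 7593. Traf3, an adaptor that restrains the alternative pathway, lost both marks (from ranks 4938 of 7593 and 8208 of 8252), and Tnip2, which binds A20, lost H3K9ac from rank 7580 of 7593.

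Of the 57 genes, 28 had no H3K27ac in WT normoxia and 6 of these gained it in WT HR, while 1 of the other 29, Csf1, lost it. H3K9ac was gained at 4 of the 21 without it and lost at 2 of the 36 with it. Over all coding genes 10.8% of those without H3K27ac gained it and 3.09% of those with it lost it. For H3K9ac these shares were 8.7% and 4.54%. With each acetylation list at 5655 peaks, 2 of the 28 gained H3K27ac, beside 3.73% of the coding genes without it. Other inhibitors and feedback genes went from 4 to 7 of 10 in H3K27ac, with Nfkbib, which encodes IkB-beta, Cyld and N4bp1 added, of which Nfkbib (rank 5891) and Cyld (rank 6138) lay beyond the 5655 peaks of the normoxia list. Myd88, the adaptor of Toll-like and interleukin 1 receptors, gained H3K27ac (68.4%). Traf6, a ubiquitin ligase of the same route, gained H3K9ac (59.2%), and Traf2 and Tnip1 lost it (from ranks 4888 and 5027 of 6513). Rela and Rel, the remaining subunits of the family, had both marks in all 3 conditions. Of 22 other targets, 11, 11 and 10 had H3K27ac and 11, 11 and 9 had H3K9ac. Over all coding genes the shares with a peak were 22.6%, 30.3% and 37.9% for H3K27ac. For H3K9ac they were 31.9%, 36.4% and 35.9%. Il6, Tnf, Il1b, Ccl20, Cxcl2, Vcam1, Sele, Traf1, Nos2 and Ptgs2 had neither mark in any list, and Bcl2l1, which encodes the survival protein Bcl-xL, ranked within the strongest 0.177% of each acetylation list. ACLY-FLAG was at 12 of the 57 (21.1%), beside 13.2% of all coding genes.

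Across the 6 acetylation lists, Nfkbia, Nfkb1, Tnfaip3 and Zfp36 had a peak in each, as did 4042 coding genes (18.5%). The other patterns were rarer. That of Nfkb2 (both H3K9ac lists of WT and H3K27ac in WT HR only) was shared by 20 coding genes in all, that of Nfkbie by 54, that of Irf1 by 67, that of Relb by 135 and that of Icam1 by 163, each count including the gene itself. Likeness was measured by the mean difference in rank percentile over the 8 lists. A list without a peak at a gene counted as 100, so lists where both genes had none added no difference. Icam1 and Relb each had a peak in only 2 of the 6 acetylation lists. The coding gene on another chromosome most like Icam1 was Eif2b5 (0.287 percentile points). That most like Zfp36 was Gdf15 (0.608) and that most like Relb was Smyd3 (0.972). The nearest to Nfkb2 was Gfus (2.46), to Tnfaip3 Efna1 (3.43), to Nfkb1 Tmie (4.23, level with 1 other gene), to Irf1 Zfp704 (4.77), to Nfkbie Mlx (5.02) and to Nfkbia Tnfaip8l1 (5.43).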

How the data were processed

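Primary hepatocytes were profiled by CUT&RUN in 8 samples with a peak list, each grouped by its title. The authors deposited 1 list per sample, with a total and a maximum signal per peak. The sources used here do not give the scale of this signal, the aligner or the peak caller. The build is mm10, per the submitters' processing notes. Ranks follow the authors' total signal within a list. Starts were counted from 1. Genes were 21887 coding genes of RefSeq (GRCm38.p6), and promoter sequences came from RefSeq's table of the same assembly. A gene had a peak when they shared at least 1 base within the gene and 1 kb either side. Python 3.11.15 with pandas 2.3.3 was used, and Wilson intervals are at 95%. Overlap counting was checked on simulated peaks. Of the pathway genes, those whose presence differed between conditions were named, at most 6 per comparison by rank of the peak, and named after their values were seen are the targets without either mark, Bcl2l1, Nfkbib, Cyld, Rela and Rel. For each of the 9 genes the most alike gene on another chromosome was taken. The 9 genes and the lists were chosen with earlier results of these data known. A gene-level count model had been planned for the RNA and was not run, since no table pairing its transcripts with genes was used. Alternatives were other windows, overlaps, list lengths and a narrower motif.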

Additional observations from a re-analysis of the deposited data

How the results depend on the processing

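No paired analysis was possible because no result here comes from a test and each condition has 1 library; for the same reason no library could be left out. The RNA alternatives were not run. Counts are of 9 genes unless given. With the stronger 50% of each list, 4 genes had WT HR H3K27ac (18.3% of all coding genes). H3K9ac was at 5 genes in WT normoxia (18.3%) and at 5 in WT HR (21.2%). H3K27ac was then gained at 0 genes in HR, and in KO HR gained at 2 and lost at 0, and H3K9ac was lost in KO HR at 2, Nfkbia and Nfkbie, in place of 4, beside 18.8% of the coding genes with it in place of 10.9%. The shares for H3K27ac, of genes without or with it, were 7.02% gained in HR and 8.5% gained and 5.66% lost in KO HR. With every acetylation list at 5655 peaks, 4 genes had KO HR H3K27ac (20% of all coding genes) and 5 had WT HR H3K9ac (29.5%). H3K27ac was gained in HR at 1 and lost in KO HR at 2, and H3K9ac was lost in HR at 1 and in KO HR at 1, beside 3.73%, 18.3%, 9.27% and 19.8% of the coding genes concerned. With both lists of a comparison at the shorter length, chosen after seeing the data, H3K27ac was gained in HR at 1 (3.73%) and lost in KO HR at 2 (14.6%). The H3K27ac gained in KO HR at Nfkbie was absent (0 genes) without the 1 kb margins, with 5 kb, with an overlap of at least 500 bases and within 1 kb of a start. Within 1 kb of a start, over 7 genes, 4 had H3K27ac in WT HR (25.7% of the coding genes with a listed start) and 3 in KO HR (33.1%). In HR, H3K27ac was gained at 1 and H3K9ac at 1, beside 10.3% and 8.61% of the coding genes without the mark. With 5 kb, Nfkbie kept a KO HR H3K9ac peak and the other 3 lost theirs (9.67%). The narrower motif matched 2 genes. The other 81 counts over these genes stayed within 1.5 times, as did 33 counts over the other pathway genes, while 15 of the latter moved further. Some of the 81 could hardly move: WT normoxia ACLY-FLAG, a list of 1 peak, gave 0 in every setting. A count can also stay while its genes change, as for H3K27ac gained in HR with 5 kb.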
